A study of Homo sapiens with 6 samples.

Results

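The protein tyrosine phosphatases named PTPR (receptor class) and PTPN (non-receptor class) were followed among the RNAs recovered with the RNA-binding protein IGF2BP3 from Merkel cell carcinoma cells. Every protein-coding gene whose symbol was PTPR or PTPN followed by its family letter or number was taken, which gave 37 of the 60655 genes in the table (19955 of them protein-coding), 20 in the receptor class and 17 in the non-receptor class. The family was chosen by its measured fold changes, since *PTPRS* and *PTPN23* stood out in the same contrast that is described here, so the values of IGF2BP3 IP against IgG IP are given as a description, with no p-value for any member, and where a calling rule of the fit over all genes is applied to a member, the call restates that choice and is no evidence of its own. No second readout of these transcripts was analysed here.

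RNA immunoprecipitation followed by sequencing (RIP-seq) was done in WaGa, a Merkel cell polyomavirus-positive Merkel cell carcinoma line, wild type and untreated, grown in RPMI medium with fetal bovine serum. All 6 libraries came from this one line. The IGF2BP3 IP group held 3 libraries made with 5 µg of antibody to IGF2BP3 (also called IMP3), and the IgG IP group held 3 libraries made with the same amount of control IgG. In both groups, antibody and RNA were collected on Protein G Sepharose beads, protein was digested with proteinase K and RNA was taken up in Trizol. No library of input RNA was analysed here, so a level in IgG IP is background carried by the beads and not the abundance of the transcript in the cell.

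Tyrosine phosphatases remove phosphate from tyrosine residues that kinases have modified, using a cysteine in the active site. Receptor-class members span the membrane and carry extracellular parts that resemble adhesion molecules, and several hold an active phosphatase domain near the membrane and a further, mostly inactive one behind it. Non-receptor members are intracellular, and their other domains place them at growth factor receptors, at the cytoskeleton or on endosomes. IGF2BP3 is an oncofetal protein that binds mRNA and affects its stability and translation.

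The library totals ran from 9758759 to 14886414 counts. Both replicate 1 libraries stood apart from replicates 2 and 3 of their own group: comparing libraries of a group by chi-square over genes gave 16.4 to 19.7 per degree of freedom where replicate 1 took part, against 2.13 (IgG IP) and 3.06 (IGF2BP3 IP) for replicates 2 and 3. Of 13 Merkel cell and neuroendocrine markers, 12 were present, with *KRT20* at 430 to 633 TPM, a level scaled for transcript length, and *NEUROD1* had 0 to 2 counts. Summed leukocyte markers reached at most 0.755 CPM, the counts scaled to the library after TMM normalisation, with *PTPRC* and *CD3E* at 0 counts in every library, and summed endothelial and keratinocyte markers reached at most 0.807 and 1.08 CPM. Of 4 fibroblast markers, *COL3A1* was at 0, *COL1A1* and *COL1A2* had 0 to 2 counts and *DCN* had 479 to 762. The summed fibroblast markers were at 49.4 to 52.0 CPM in IgG IP and 41.6 to 47.0 CPM in IGF2BP3 IP, and their part in any result was not tested.

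The stretch that codes for the catalytic signature is shown for *PTPRS* and *PTPN23*, the pair with the highest fold changes of their classes, and for the relatives they are compared with below, because it is the feature that defines the family and shows how alike the members' transcripts are at their most conserved point. The search took a histidine codon, a cysteine codon, a glycine codon and the arginine codon that closes the signature, each at a fixed place. All 37 canonical transcripts held at least 1 such stretch, 9 of them in both phosphatase domains. Each is written 5′ to 3′ on the coding strand over 24 bases of GENCODE version 44 sequence, with the cysteine codon and the closing arginine codon in capitals. On GRCh38 the *PTPRS* stretches lay in coding exons at chr19:5212235-5212344 (membrane-proximal domain) and chr19:5208042-5208244 (membrane-distal domain) on the minus strand, each interrupted by an intron. The *PTPN23* stretch lay at chr3:47412191-47412298 on the plus strand, also across an intron.
PTPRS membrane-proximal: cacTGCagtgccggtgtgggcCGC
PTPRS membrane-distal: cacTGCagtgccggcgtgggcAGG
PTPRF membrane-proximal: cacTGCagcgcgggcgtgggcCGC
PTPRF membrane-distal: cacTGCagtgctggcgtgggcCGC
PTPRD membrane-proximal: cacTGCagtgcgggagttggcCGG
PTPRD membrane-distal: catTGCagcgcgggcgttggaAGA
PTPRU membrane-proximal: cacTGCagcgcgggcaccggcCGC
PTPRU membrane-distal: cacTGCctaaacgggggaggaCGC
PTPN23: cacTGCagctctggtgtgggcCGC
PTPN11: cacTGCagtgctggaattggcCGG
PTPN1: cacTGCagtgcaggcatcggcAGG

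Against the membrane-proximal stretch of *PTPRS*, 21 of the 24 bases were identical in *PTPN23*, 21 in the membrane-proximal stretch of *PTPRF*, 20 in that of *PTPRD*, 18 in that of *PTPRU*, 19 in *PTPN11* and 18 in *PTPN1*. Part of this likeness was set by the search, which required the histidine, cysteine, glycine and arginine codons in every stretch. The likeness did not extend far. The longest run of identical bases between any pair of canonical transcripts of the family was 43, between *PTPRF* and *PTPRS*. The next was 28, between *PTPN2* and *PTPN9*. Reads were 150 bases long and paired, so runs of this length are shorter than a read. Near-identical stretches and other isoforms were not compared, and whether reads were shared between members was not tested.

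Of the 37 members, 27 had enough counts to be tested (15 receptor, 12 non-receptor). In the receptor class, *PTPRC* and *PTPRE* had no counts, and *PTPRH*, *PTPRQ* and *PTPRN* had at most 1, 4 and 10 counts in a library. In the non-receptor class, *PTPN14* had no counts, and *PTPN13*, *PTPN7*, *PTPN5* and *PTPN22* had at most 1, 2, 4 and 11. A count of 0 in every library says only that the transcript was not detectable at this depth in RNA from the beads.

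A gene was called enriched when it was at least 1.5-fold higher in IGF2BP3 IP with an adjusted p under 0.05 over all 14507 genes tested by edgeR's quasi-likelihood test. By this rule 1 receptor (*PTPRS*) and 1 non-receptor phosphatase (*PTPN23*) were called, the members the family was chosen for, beside 169 genes of all those tested, or 1.16%. With no fold minimum the same call was made for these members and for no other. The share of all genes called without a fold minimum is not given here, so nothing is read from that count. No member was at least 1.5-fold lower with an adjusted p under 0.05, beside 0% of all genes. Without adjustment for multiple testing (p under 0.05, at least 1.5-fold), the same 2 members were higher and 0 members were lower, while 558 of all genes were higher and 59 lower.

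*PTPRS* encodes a receptor for heparan and chondroitin sulfate proteoglycans and belongs, with *PTPRF* and *PTPRD*, to the leukocyte common antigen-related subfamily that organises synapses. Its gene lies at chr19:5158495-5340812 on the minus strand of GRCh38, with 38 exons in the canonical transcript. It had 378, 660 and 542 counts in IgG IP replicates 1, 2 and 3, and 1016, 1061 and 942 counts in IGF2BP3 IP replicates 1, 2 and 3. After TMM normalisation this was 41.0, 44.2 and 43.7 CPM in IgG IP against 85.3, 80.1 and 76.6 CPM in IGF2BP3 IP, that is 43.0 ± 1.75 and 80.7 ± 4.39 CPM (SD, n = 3). Every IGF2BP3 IP library was above every IgG IP library, and the gap between the groups was several times the spread within either. The fit put *PTPRS* 1.88-fold higher in IGF2BP3 IP, 0.91 on the log2 scale with a standard error of 0.088 and a 95% confidence interval of 0.71 to 1.11, position 194 from the top of the 14507 genes. Per length, the level was 14.6 ± 3.15 TPM in IgG IP and 27.6 ± 1.68 TPM in IGF2BP3 IP. *PTPRS* made up 5.45% of the normalised counts of the receptor class in IgG IP and 9.42% in IGF2BP3 IP, as means of 3 libraries.

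*PTPN23* encodes HD-PTP, a phosphatase-like scaffold that works with the ESCRT machinery in sorting receptors on endosomes. Its gene lies at chr3:47381011-47413435 on the plus strand, with 25 exons. It had 44, 77 and 47 counts in IgG IP replicates 1, 2 and 3, and 156, 220 and 244 counts in IGF2BP3 IP replicates 1, 2 and 3. In CPM the libraries stood at 4.77, 5.16 and 3.79 in IgG IP and at 13.1, 16.6 and 19.8 in IGF2BP3 IP, with means of 4.57 ± 0.705 and 16.5 ± 3.37 (SD, n = 3). The groups did not overlap, and the lowest IGF2BP3 IP library was well above the highest IgG IP library. The fit put *PTPN23* 3.60-fold higher, 1.85 on the log2 scale with a standard error of 0.20 and a 95% confidence interval of 1.39 to 2.31, position 8 from the top of all genes tested. Per length, *PTPN23* was at 0.917 ± 0.290 TPM in IgG IP and 4.41 ± 1.28 TPM in IGF2BP3 IP, so it was a scarce transcript of the family in both. Its share of the normalised counts of the non-receptor class was 0.586% in IgG IP and 2.11% in IGF2BP3 IP.

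The lncRNA *PTPN23-DT* lies on the opposite strand at the start of *PTPN23*, and the canonical transcripts share 160 exon bases. It had 21 to 40 counts in the 6 libraries and a log2 fold change of -0.31 (standard error 0.31). Whether the counting used strand was not given in the sources used here. The part of reads from this lncRNA in the counts of *PTPN23* was not tested.

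**Figure D1:**
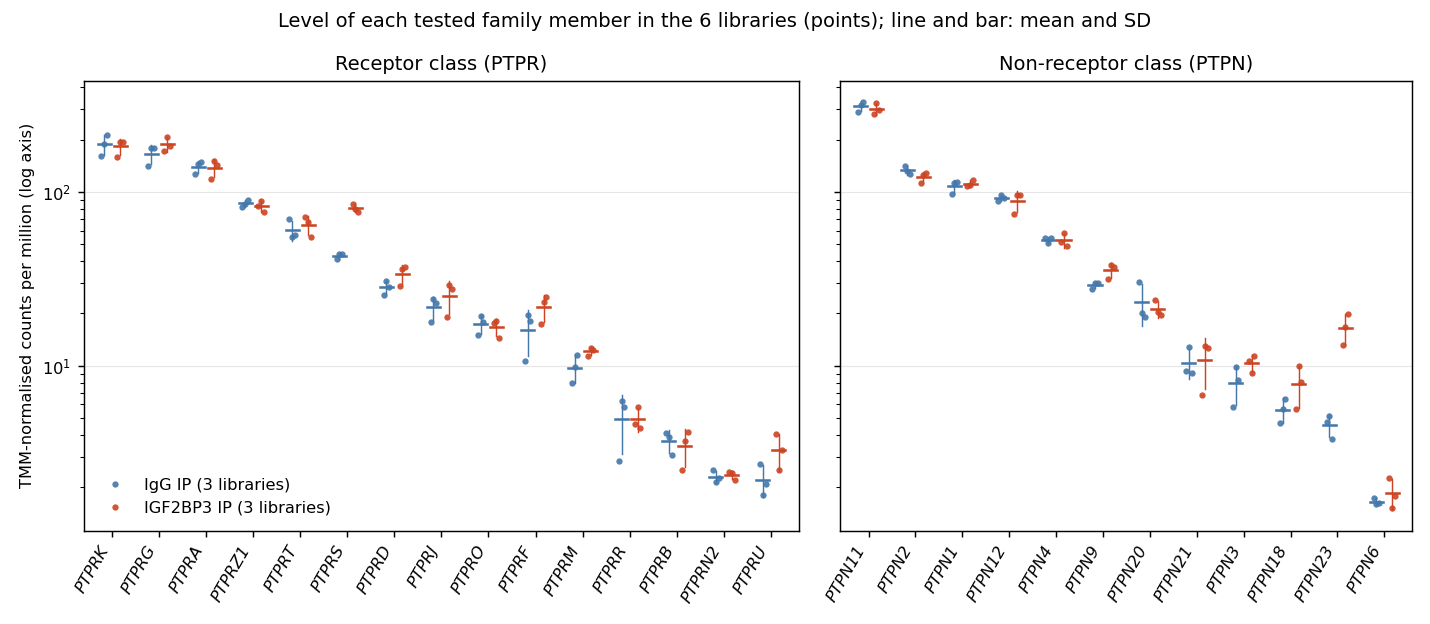
TMM-normalised CPM (log axis) of the 27 tested members in the 3 IgG IP libraries (blue) and 3 IGF2BP3 IP libraries (red), with the mean as a horizontal line and the SD as a vertical bar; members are ordered within each class by their mean in IgG IP. The red and blue points are clearly apart for *PTPRS* (43.0 against 80.7) and *PTPN23* (4.57 against 16.5), narrowly apart for *PTPN9*, and overlap for the other 24.

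Leaving out 1 library could end both calls. Without IGF2BP3 IP replicate 2, edgeR called 0 genes of any kind (473 were at least 1.5-fold higher with an unadjusted p under 0.05), and without IgG IP replicate 3 it called 7, none of them a member. The log2 fold changes hardly moved there, at 0.91 and 0.92 for *PTPRS* and 1.84 and 1.73 for *PTPN23*. Without either or both of the replicate 1 libraries, which stood apart, *PTPRS* and *PTPN23* were called and no other member was. With both left out, a setting chosen after seeing the data, the log2 fold changes were 0.84 and 2.01.

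The closest relatives of *PTPRS* had lower fitted fold changes, and the difference between members was not tested. For *PTPRF* the 95% confidence interval was -0.09 to 0.94, which overlapped that of *PTPRS* (0.71 to 1.11). For *PTPRD* it was -0.04 to 0.55, which did not. *PTPRF*, which encodes LAR, a receptor at cell contacts, was at 10.6, 19.6 and 18.1 CPM in IgG IP and 17.3, 23.3 and 24.7 CPM in IGF2BP3 IP, with a log2 fold change of 0.42 (standard error 0.23). Its replicate 1 IgG IP library was far below the other IgG IP libraries, and the groups overlapped. *PTPRD*, which encodes the neuronal relative PTP delta, was at 25.7, 30.8 and 28.3 CPM in IgG IP and 28.8, 35.8 and 36.8 CPM in IGF2BP3 IP, with a log2 fold change of 0.26 (standard error 0.13). Only its replicate 1 IGF2BP3 IP library fell within the IgG IP range. Both were higher in each of the 3 same-numbered pairs and neither was called.

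Among the receptors with MAM domains, which bind their own kind on neighbouring cells, *PTPRU* came nearest to the fold minimum of the calling rule without passing it. It had 25 to 48 counts in a library, 2.71, 1.81 and 2.10 CPM in IgG IP and 4.03, 2.49 and 3.25 CPM in IGF2BP3 IP. The fitted difference was 1.49-fold, 0.58 on the log2 scale, but the standard error of 0.28 was the largest of the receptors with a value above 0.1. Its lowest IGF2BP3 IP library lay under its highest IgG IP library. *PTPRM*, with 73 to 168 counts, reached 0.31 on the log2 scale (standard error 0.16), *PTPRT* 0.10 (standard error 0.13) and *PTPRK*, one of the most abundant receptors here, -0.04 (standard error 0.12).

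The remaining receptors lay close to 0. *PTPRG*, which has a carbonic anhydrase-like extracellular domain, was at 166 ± 21.1 CPM in IgG IP and 188 ± 18.4 CPM in IGF2BP3 IP, a log2 fold change of 0.18 (standard error 0.11). Its antisense lncRNA *PTPRG-AS1* shares 79 exon bases with it, had 423 to 555 counts and was at -0.07 (standard error 0.14). *PTPRZ1*, the relative of *PTPRG* that binds pleiotrophin, was at 86.0 ± 4.11 and 82.8 ± 5.82 CPM, and *PTPRA*, an activator of Src kinases, at 140 ± 11.8 and 138 ± 16.4 CPM. Of the receptors with fibronectin repeats and a lone phosphatase domain, *PTPRJ* (DEP-1) was at 0.21 (standard error 0.18), *PTPRO* at -0.06 (standard error 0.15) and *PTPRB*, known from endothelium, at -0.09 (standard error 0.25, 30 to 58 counts). *PTPRN2*, a protein of secretory granules without catalytic activity toward tyrosine, had 23 to 32 counts and was at 0.04 (standard error 0.24), and *PTPRR*, which docks on MAP kinases, -0.03 (standard error 0.29).

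In the non-receptor class, the abundant members had fold changes near 0. *PTPN11* encodes SHP2, which carries signals from growth factor receptors to Ras, and was at 312 ± 19.8 CPM in IgG IP and 300.3 ± 22.3 CPM in IGF2BP3 IP (log2 fold change -0.06, 95% confidence interval -0.25 to 0.14). *PTPN2* and *PTPN1*, paired relatives that act on JAK kinases and the insulin receptor, had log2 fold changes of -0.13 (standard error 0.085) and 0.05 (standard error 0.089). For these 3 members the interval stayed well under the log2 value of 0.58 that stands for 1.5-fold, with upper ends of 0.14, 0.06 and 0.25. The cytoskeletal regulator *PTPN12* (PTP-PEST) was at -0.06 (standard error 0.11), and its relative *PTPN18*, which acts on ErbB2, at 0.49 (standard error 0.23) with 43 to 131 counts. *PTPN18* was at 4.66, 5.63 and 6.45 CPM in IgG IP and 5.62, 9.89 and 8.05 CPM in IGF2BP3 IP, so that IGF2BP3 IP replicate 1 lay inside the IgG IP range.

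*PTPN9*, a phosphatase of secretory vesicles with a lipid-binding domain, was the other member besides *PTPRS* and *PTPN23* whose groups did not overlap. It was at 27.6, 30.1 and 29.8 CPM in IgG IP and 31.5, 37.9 and 37.1 CPM in IGF2BP3 IP. At 0.28 on the log2 scale (standard error 0.11) it was under the fold minimum. Of the members with FERM domains, which link membrane to cytoskeleton, *PTPN3* was at 0.36 (standard error 0.20, 53 to 146 counts), *PTPN21* at 0.06 (standard error 0.25) and *PTPN4* at -0.01 (standard error 0.098). *PTPN6* (SHP1), best known from blood cells, had 16 to 27 counts and a log2 fold change of 0.17 (standard error 0.28), and *PTPN20* was at -0.12 (standard error 0.19).

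**Figure D2:**
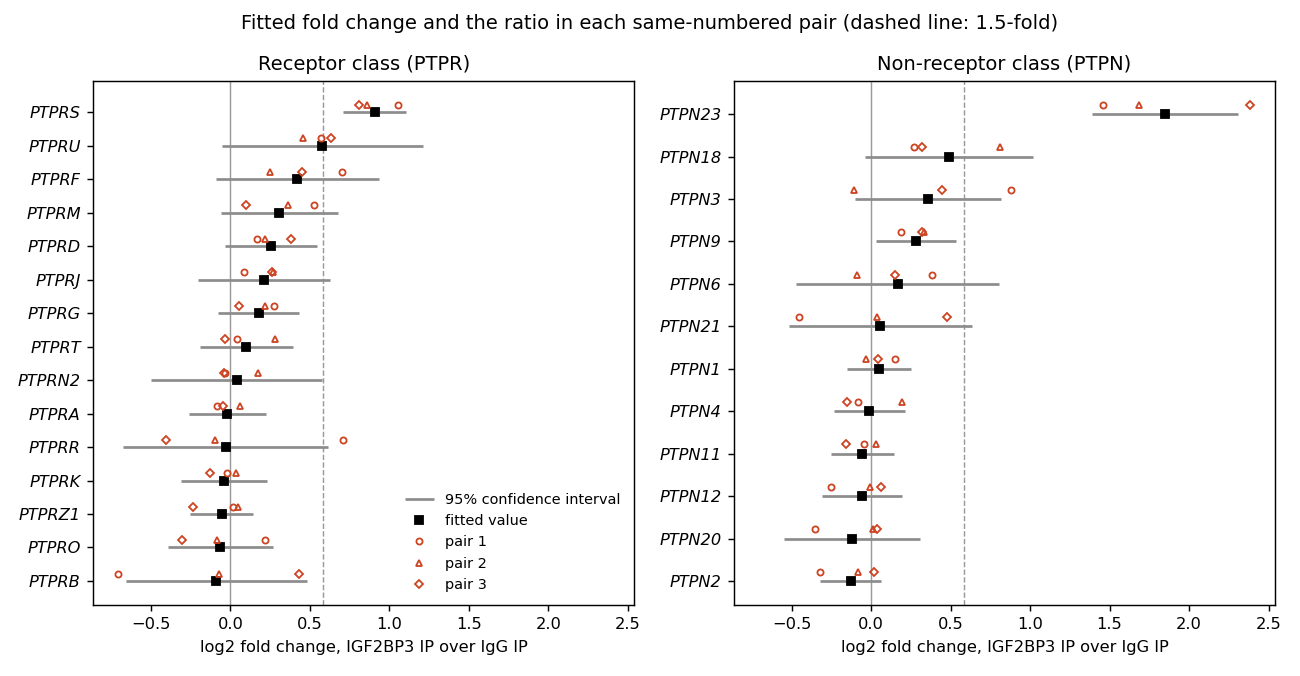
Fitted log2 fold change of IGF2BP3 IP over IgG IP (black squares) with the 95% confidence interval (grey bars) for the 15 receptor and 12 non-receptor members tested, and the log2 ratio of CPM in each same-numbered pair of libraries (red symbols); the dashed line marks 1.5-fold. *PTPRS* (0.91) and *PTPN23* (1.85) have their intervals and all 3 pairs to the right of the dashed line. The family was chosen for these members in this same contrast, so their position restates that choice and is no evidence of its own. The other 25 members have fitted values between -0.13 and 0.58.

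As a group, the families stayed near the middle of all genes. The median log2 fold change was 0.10 over the 15 receptors and 0.05 over the 12 non-receptors tested, against -0.01 over all 14507 genes and 0.00 over 11874 protein-coding genes. Leaving out *PTPRS* and *PTPN23*, the other 25 members had a median of 0.05. By fitted value 16 members were above 0 and 11 below, a split that depended on the scaling: it was 19 and 8 when libraries were scaled by their totals, 23 and 4 after correction for GC content, and 27 and 0 in the test on TPM, where the median of all genes was itself shifted to 0.11. Without *PTPRS*, the summed receptors were at 747 ± 66.6 CPM in IgG IP and 780 ± 64.3 CPM in IGF2BP3 IP, and without *PTPN23* the summed non-receptors were at 777 ± 22.3 and 763 ± 49.8 CPM (SD, n = 3). Those sums differed by less than the spread between replicates.

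Group separation was also counted library by library. Every IGF2BP3 IP library was above every IgG IP library for 3 of the 27 members tested (1 receptor and 2 non-receptors), beside 12% of all genes, and below for 0 members, beside 8.69%. In the same-numbered pairs, 10 members (7 receptors and 3 non-receptors) were higher in all 3, beside 25.1% of all genes, and 0 were lower in all 3, beside 23.5%. Nothing is read from these counts, because the family was put forward from this contrast. For the receptors, the members higher in every pair were *PTPRS*, *PTPRU*, *PTPRF*, *PTPRM*, *PTPRD*, *PTPRJ* and *PTPRG*, and for the non-receptors *PTPN23*, *PTPN18* and *PTPN9*. With the replicate number as a block, edgeR called 3.56% of all genes enriched and 0.103% lower, and of the members again *PTPRS* and *PTPN23* alone.

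Per length, the order of the members was led in both groups by *PTPN2*, at 92.6 ± 14.8 TPM in IgG IP and 95.6 ± 16.1 TPM in IGF2BP3 IP. *PTPRA*, *PTPRK* and *PTPN11* followed at 65.6 to 71.6 TPM in IgG IP and 69.1 to 78.0 TPM in IGF2BP3 IP, and did not differ from each other beyond their spread. *PTPN12* (48.1 ± 4.76 TPM in IgG IP), *PTPN1* (32.2 ± 8.73) and *PTPRG* (29.5 ± 8.31) came next. *PTPRS* lay below these, between *PTPRZ1* (19.1 ± 4.68) and *PTPN20* (12.7 ± 0.544) in IgG IP. In IGF2BP3 IP, *PTPRS* was near *PTPN4* (25.2 ± 3.97). In TPM the replicate 1 libraries were low: the 37 members summed to 403 TPM in IgG IP replicate 1 against 576 and 616 in replicates 2 and 3, and to 466 in IGF2BP3 IP replicate 1 against 692 and 661. In CPM the same sums were closer, at 1469, 1611 and 1636 in IgG IP and 1520, 1744 and 1659 in IGF2BP3 IP.

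Base composition moved with the fold changes. Across the 27 tested members, the log2 fold change and the GC content of the canonical transcript had a Spearman rho of 0.775 (Pearson r 0.687), and a rho of 0.718 without *PTPRS* and *PTPN23*. Over 11867 protein-coding genes tested the rho was 0.485, and in both cases the points are genes that share the same 6 libraries and are not independent replicates. *PTPRS* (61.1% GC) and *PTPN23* (62.1% GC) lay above 88.0% and 90.6% of those genes in GC content. Of the members, 7 had at least 55% GC, namely *PTPN23*, *PTPRU*, *PTPRS*, *PTPRF*, *PTPRN2*, *PTPN6* and *PTPN18*, whose log2 fold changes had a median of 0.49 and lay between 0.04 and 1.85. The other 20 lay between -0.13 and 0.36 with a median of -0.02. The 7 include *PTPRS* and *PTPN23*, which were chosen for their high values. Without them the log2 fold changes were 0.58 (*PTPRU*), 0.49 (*PTPN18*), 0.42 (*PTPRF*), 0.17 (*PTPN6*) and 0.04 (*PTPRN2*). The 55% boundary was not planned beforehand, and no tested member lay between 51.1% and 58.0% GC.

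The same division was seen in all protein-coding genes: the 3525 with at least 55% GC had a median log2 fold change of 0.18 and 2.75% were enriched, against a median of -0.05 and 0.815% for the 8342 with less. Among those 3525 genes, 4 had a higher log2 fold change than *PTPN23* and 122 had a higher one than *PTPRS*. With a loess correction for GC content in each library, *PTPRS* was at 0.75 and *PTPN23* at 1.68, and both were called. In that fit *PTPRU* was at 0.41, *PTPN18* at 0.37 and *PTPRF* at 0.28.

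**Figure D3:**
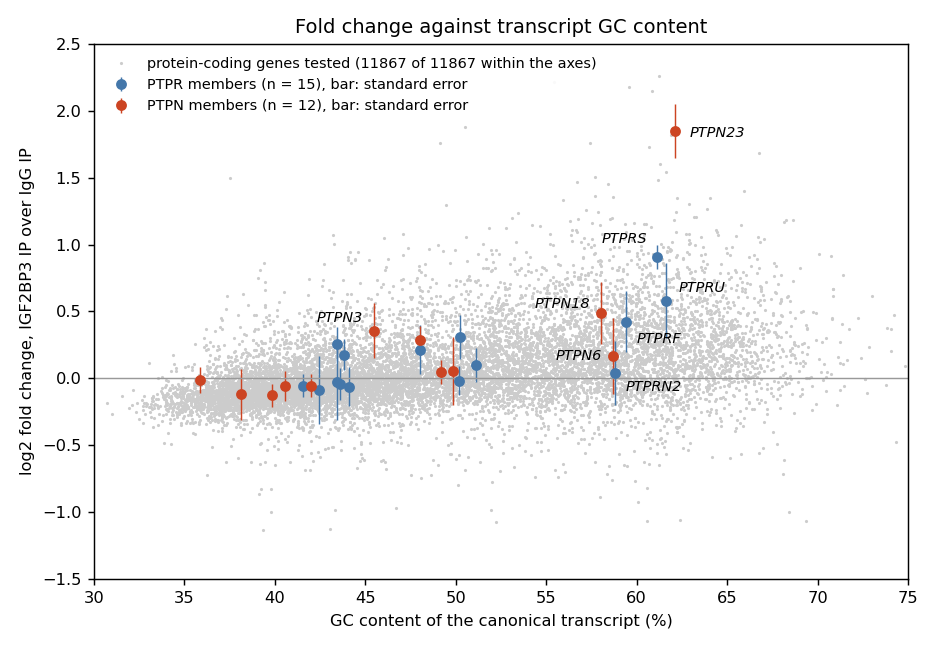
Log2 fold change of IGF2BP3 IP over IgG IP against the GC content (%) of the canonical transcript for 11867 protein-coding genes (grey) and the 27 tested members, receptors in blue and non-receptors in red, with bars for the standard error. The grey points drift upward with GC content (rho 0.485) and the members do so too (rho 0.775), with *PTPN23* (62.1% GC, 1.85) and *PTPRS* (61.1% GC, 0.91) at the upper right.

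Other features of the transcripts went less closely with the values. Over the 27 members, rho was 0.321 for the length of the coding sequence, 0.179 for the length of the transcript and -0.083 for the length of the 3′ UTR. The 4-base words GGAC (the core of the motif for N6-methyladenosine, whose readers include the IGF2BP proteins) and CACA (an element bound by this protein family) were counted per kilobase on the transcript strand only, overlapping matches included, and the words can share their end bases. Nearly every transcript holds them, 99.4% and 99.1% of the 11867, at medians of 3.57 and 4.29 per kilobase. *PTPRS* had 7.88 GGAC per kilobase, above 94.8% of the protein-coding genes tested, and 4.21 CACA, above 47.8%. *PTPN23* had 5.54 GGAC, above 78.3%, and 4.77 CACA, above 62.1%. How far the density of GGAC follows GC content was not tested. The highest density of GGAC among the tested members was that of *PTPN18*, at 9.40. Over the members rho was 0.428 for GGAC and 0.351 for CACA, against 0.366 and 0.192 over all protein-coding genes. The 3′ UTR of *PTPN23* was short, at 250 bases of a transcript of 5237, and that of *PTPRS* was 1266 bases of 7356.

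Genes that work with these phosphatases were counted in the same fit, on lists of known partners. Of 22 partners of the *PTPRS*, *PTPRF* and *PTPRD* receptors (liprins, TRIO and synaptic or matrix ligands), 16 were tested, 0 were enriched and 0 were lower, with 2 at an unadjusted p under 0.05 (beside 12.8% of all genes) and a median log2 fold change of 0.18. By value 14 of the 16 were above 0, beside 48.9% of all genes. The part of GC content in this share was not tested. The highest was *AGRN*, which encodes the heparan sulfate proteoglycan agrin and is named after its values were seen. It was at 2.60 ± 0.334 CPM in IgG IP and 4.70 ± 0.226 CPM in IGF2BP3 IP, with 67.6% GC in its canonical transcript. The log2 fold change was 0.86 (standard error 0.21, edgeR quasi-likelihood adjusted p = 0.0928). Of the 26 ESCRT proteins on the sorting route in which *PTPN23* works, all were tested, 0 passed in either direction (3 at an unadjusted p under 0.05, beside 12.8% of all genes) and the median was 0.02.

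Of 14 receptors, adaptors and docking proteins around SHP2, 12 were tested and 1 was enriched, beside 1.16% of all genes. This was *SHC1*, an adaptor that couples receptors to Ras, at 42.4, 45.9 and 46.8 CPM in IgG IP and 67.4, 82.4 and 84.1 CPM in IGF2BP3 IP. The groups did not overlap, and the log2 fold change was 0.79 (standard error 0.11, edgeR quasi-likelihood adjusted p = 0.015). Its canonical transcript had 56.5% GC. *SHC1* was not called without IGF2BP3 IP replicate 2 or by limma-trend on TPM, where 0 of all genes were called. The median of the list was 0.01 and no gene of it was lower. Of 53 other phosphatases of the wider superfamily (dual-specificity, CDC25, myotubularin, Slingshot and EYA genes among them), 48 were tested, 0 were enriched and 0 lower, with 7 at an unadjusted p under 0.05 (beside 12.8% of all genes) and a median of 0.00.

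Under the 18 other settings tried, *PTPRS* lay between 0.74 and 0.95 and *PTPN23* between 1.48 and 2.15 on the log2 scale. No setting called a further member. DESeq2, the tool the study names, called *PTPRS* at 0.90 and *PTPN23* at 1.84. In the test on log2 TPM (limma-trend) with a pseudocount of 1, *PTPRS* was at 0.89 and *PTPN23* at 1.48, and with a pseudocount of 0.1 they were at 0.93 and 2.15. Neither was called in these tests, and with the pseudocount of 1 limma-trend called 0 of all genes, with 476 at least 1.5-fold higher at an unadjusted p under 0.05.

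**Figure D4:**
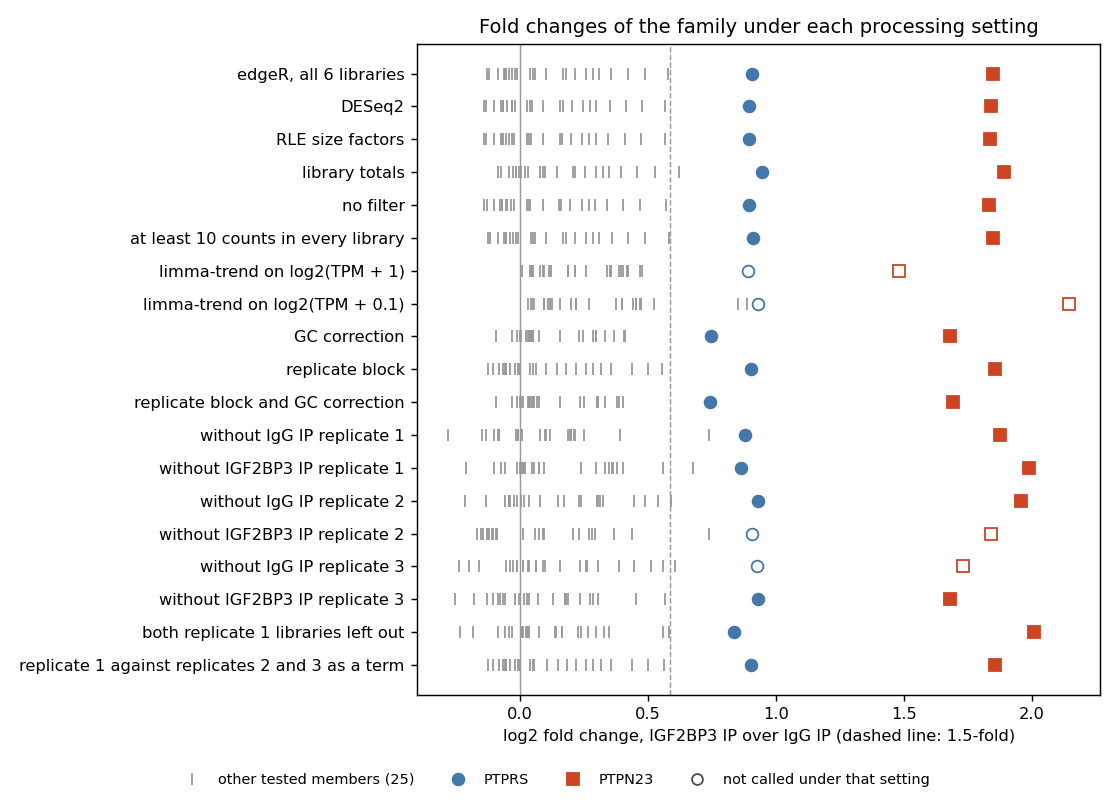
Log2 fold change of *PTPRS* (blue circles), *PTPN23* (red squares) and the other 25 tested members (grey ticks) under the edgeR fit of all 6 libraries and 18 other settings; filled symbols were called enriched and open ones were not, and the dashed line marks 1.5-fold. *PTPRS* and *PTPN23* stay to the right of the dashed line in every row and are open in 4: both tests on TPM, the fit without IGF2BP3 IP replicate 2 and the fit without IgG IP replicate 3.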

How the data were processed

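RIP-seq libraries of WaGa cells were sequenced by the authors on an Illumina HiSeq with paired 150-base reads, aligned to GRCh38 with STAR 2.7.9a and quantified with RSEM on GENCODE version 37. The deposited raw counts are whole numbers per gene; how they were made from the RSEM output and whether strand was used is not given in the sources used here. The authors also deposited TPM values, used for levels per length and in 1 alternative test, and FPKM values, not used here. No columns of other samples were present (0).

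Samples were grouped by the labels as 3 IgG IP and 3 IGF2BP3 IP libraries. Counts were filtered (filterByExpr, 14507 of 60655 genes kept), TMM-normalised and tested with edgeR 4.0.16 (quasi-likelihood, condition only, R 4.3.3), with Benjamini-Hochberg adjustment over all genes tested. CPM are counts scaled to the library size after TMM. The total counts, 9758759 to 14886414 a library, and a biological coefficient of variation of 13.4% limit the precision. The labels do not say that replicates came from separate cultures, so p-values measure only the spread between these libraries, which may be technical. DESeq2 1.42.0, limma 3.58.1 (log2 of TPM plus 1 or 0.1), other scalings and filters, a loess correction for GC content (span 0.5), the replicate number as a block and each library left out were the alternatives. Each kind of fit was run on simulated counts with 200 changed genes, of which 94.5% (DESeq2) to 97.5% (edgeR) were recovered. The simulation had a common dispersion for all genes, no replicate 1 difference and no GC trend. It therefore cannot show how the fits do on these libraries. In the simulation limma-trend was run on counts scaled by library totals, not on TPM, and recovered 97%. On the TPM of these libraries it called 0 genes, and that fit on TPM was not simulated. Same-numbered IgG IP and IGF2BP3 IP libraries deviated from their group means together (correlations across genes of 0.54, 0.26 and 0.22 for replicates 1, 2 and 3), so the numbers were taken to pair the libraries. Replicates 2 and 3 correlated as closely crosswise (0.26 for IgG IP 2 with IGF2BP3 IP 3, 0.25 for IgG IP 3 with IGF2BP3 IP 2), so only number 1 was set apart by this check.

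Gene IDs were matched to GENCODE version 44 on GRCh38 (60481 of 60655, all 37 members) for coordinates, canonical transcripts, GC content and the signature stretches. Every tested member is named with its values, untested members with their counts, and of each partner list up to 3 genes past the thresholds. *AGRN* falls outside this rule and was chosen after its values were seen. The members and lists were chosen with earlier results of these data known.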

Additional observations from a re-analysis of the deposited data

How the results depend on the processing

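With the replicate block, *PTPRS* was at 0.90 and *PTPN23* at 1.85 on the log2 scale and no call of a member changed. GC correction lowered *PTPRS* to 0.75, or 0.74 together with the replicate block. In limma-trend on log2(TPM + 1) and on log2(TPM + 0.1), the enriched members were 0 receptors and 0 non-receptors, the receptor median was 0.26 and 0.40 and the non-receptor median 0.20 and 0.21, while the median of all genes was 0.11 and 0.13; the cause was not tested. Leaving out 1 library at a time gave 0 to 1 enriched receptors and 0 to 1 enriched non-receptors. Over those fits *PTPRS* ran from 0.86 to 0.93, *PTPN23* from 1.68 to 1.99, the receptor median from 0.07 to 0.17 and the non-receptor median from -0.017 (with IGF2BP3 IP replicate 2 absent) to 0.11 (with IgG IP replicate 2 absent). No member was lower under any setting. Of all genes, 169 were enriched in the edgeR fit, 281 by DESeq2, 359 without a filter, 111 after GC correction, 517 with the replicate block (15 lower), 345 with block and GC correction (24 lower) and 0 to 244 with a library left out (replicate 2 absent: 0 for the IGF2BP3 IP library and 19 for the IgG IP library; replicate 3 absent: 23 and 7 in that order). Of the settings chosen after seeing the data, leaving out both replicate 1 libraries gave 466 enriched and 8 lower, and a term for replicate 1 against the others gave 537 and 23. Of the other 25 members, 10 kept 1 sign under all 18 alternatives and 15 changed sign under at least 1. Of 450 combinations of those members and settings, 407 moved by less than the SD of the member's 3 pair ratios.

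The members *PTPRU*, *PTPRB*, *PTPRN2*, *PTPRR* and *PTPN6*, with at most 93 counts in a library, had standard errors of 0.24 to 0.29, and the upper ends of their 95% confidence intervals were 0.48 to 1.21 on the log2 scale.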
